A study of Rattus norvegicus with 15 samples.

Results

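Actb and Gapdh are examined here as reference messenger RNAs in libraries of RNA recovered with the RNA-binding protein hnRNP A2. The pair was fixed by name and by Ensembl identifier, ENSRNOG00000034254 for Actb and ENSRNOG00000018630 for Gapdh, and both were found among the 30560 rat gene identifiers of the count tables. The identifiers were paired with their symbols when the genes were chosen, since the count tables hold no symbols.

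The cells were primary oligodendrocytes, the myelin-forming cells of the central nervous system, grown from precursors of newborn Sprague-Dawley rat forebrain cortex (postnatal days 0 to 2) and matured for 3 days in culture. Control cultures and cultures given oligomeric amyloid-β each gave 3 libraries of total RNA (input) and 3 of RNA immunoprecipitated with hnRNP A2, and 3 further libraries came from an IgG immunoprecipitation. By their labels the IgG samples pool the treatments, whereas the names of their files point to amyloid-β alone; the labels were followed. All 5 groups share the same culture and library protocols. The sources used here do not give the dose or duration of amyloid-β on the cells, or whether animals were pooled. The protocol text also describes siRNA transfection, and no label ties it to these libraries. The oligodendrocyte identity could not be checked against its markers, because the tables used here pair no other identifier with a symbol.

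In RNA immunoprecipitation an antibody pulls down a protein with the RNA attached to it, and an IgG without that target gives the background of the procedure. hnRNP A2 is known for binding and transporting particular messenger RNAs in oligodendrocytes, that of myelin basic protein being the classic case. Actb encodes β-actin, a subunit of the actin filaments that shape the cell and its processes. Gapdh encodes glyceraldehyde-3-phosphate dehydrogenase, an enzyme of glycolysis. Both are abundant cytoplasmic messages that are widely used as references in expression measurements, and Actb mRNA is itself known to be localized within cells by other RNA-binding proteins.

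The total of gene counts per library was 14773400 to 25751522 for input, 28056346 to 33168494 for hnRNP A2, and 81463, 4096829 and 1895870 for IgG replicates 2, 3 and 4. The 10 most abundant genes held 19.9% to 41.6% of gene counts in input, 6.05% to 8.59% with hnRNP A2 and 7.10% to 16.1% with IgG. A share below is the percentage of all counts assigned to genes, with 95% Wilson intervals that cover counting error only. Because shares sum to the whole, a lower share does not show that less RNA was present, and in these bulk samples fewer cells holding an RNA and less of it per cell cannot be told apart.

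Actb held a large share of the input RNA and a much smaller share of every immunoprecipitated library. In control input it took 0.340%, 0.431% and 0.408% of gene counts in replicates 2, 3 and 4, and in amyloid-β input 0.434%, 0.741% and 0.492%. With hnRNP A2 it took 0.0852%, 0.0902% and 0.0837% in the control replicates and 0.105%, 0.0981% and 0.0874% in the amyloid-β replicates. The lowest input library thus lay above the highest hnRNP A2 library. In the IgG libraries Actb took 0.0908% (74 counts, interval 0.0724% to 0.114%), 0.0646% and 0.0725%, which overlaps the hnRNP A2 range and lies below all 6 inputs. Ordered by count among all genes of a library, with no correction for length, Actb stood at ranks 8 to 13 in input, 70 to 118 with hnRNP A2 and 89 to 200 with IgG.

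Gapdh followed the same order of groups, at lower counts. It took 0.0328%, 0.0430% and 0.0503% in control input replicates 2, 3 and 4 and 0.0421%, 0.0712% and 0.0549% in amyloid-β input. With hnRNP A2 it took 0.00595%, 0.00566% and 0.00509% in the control replicates and 0.00776%, 0.00709% and 0.00514% in the amyloid-β replicates, again without overlap with input. The IgG libraries had 0.00246%, 0.00486% and 0.00617%, of which the first rests on 2 counts (interval 0.000673% to 0.00895%) and the others on 199 and 117. Gapdh moved from ranks 130 to 268 in input to ranks 3057 to 4061 with hnRNP A2 and 3090 to 5150 with IgG.

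**Figure D1:**
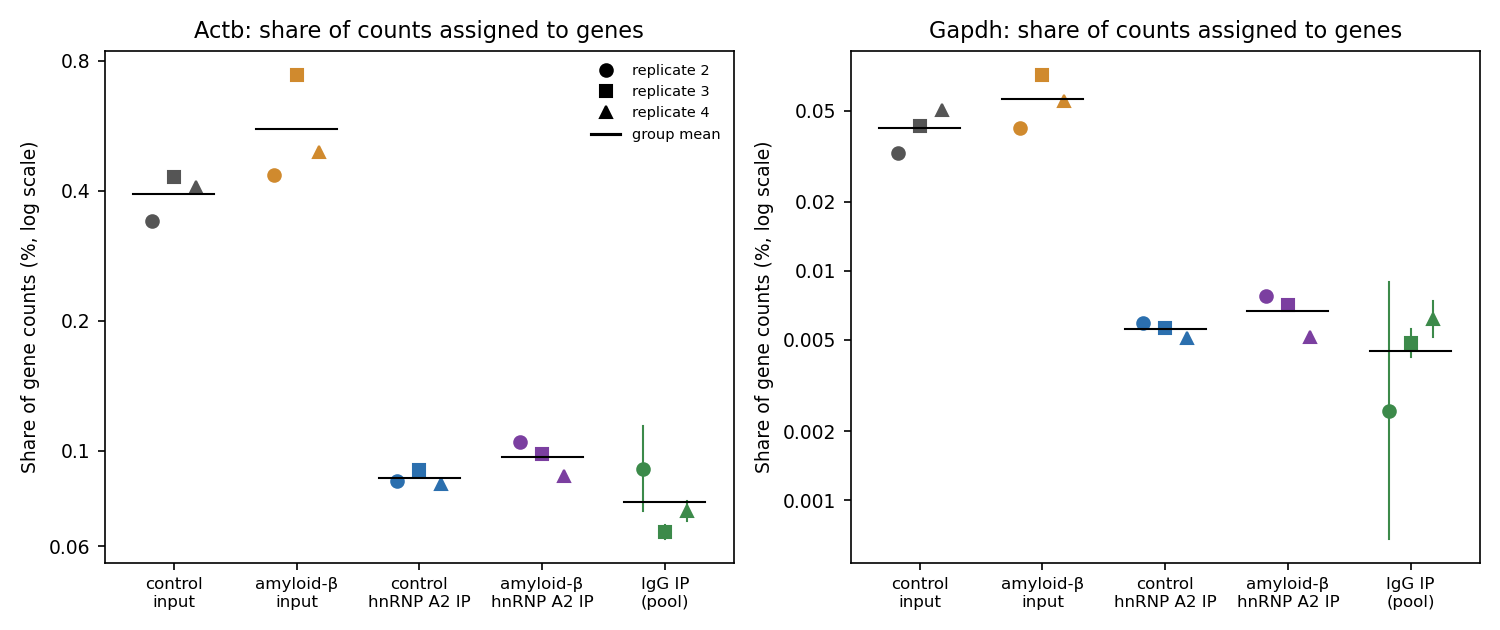
Share of gene counts (%, log axis) of Actb (left) and Gapdh (right) in each of the 15 libraries, with symbols for the replicate number, thin lines for 95% Wilson intervals and black lines for group means. All input libraries lie above all immunoprecipitated ones for both genes, and the interval of Gapdh in IgG replicate 2 is wide because it rests on 2 counts.

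Comparing hnRNP A2 with input asks how far these reference RNAs were retained or lost in the precipitate, and both fell. The Actb share was 0.474% ± 0.140 (SD, n = 6) in input and 0.0916% ± 0.00828 (SD, n = 6) with hnRNP A2, 5.18-fold lower (2-sided exact permutation test, p = 0.00216, the smallest that 6 libraries against 6 allow; adjusted p = 0.0108 over 15 tests). The Gapdh share was 0.0490% ± 0.0133 (SD, n = 6) in input and 0.00612% ± 0.00109 (SD, n = 6) with hnRNP A2, 8.02-fold lower (exact permutation test, p = 0.00216, adjusted p = 0.0108). As a percentage of all records of a file, summary rows included, hnRNP A2 stood at 0.311 of the input level for Actb and 0.203 for Gapdh, against 0.193 and 0.125 as shares of gene counts, and both passed (exact permutation test, adjusted p = 0.0108). Of 15303 genes, 6.91% likewise had lower shares with hnRNP A2 and no overlap between the 6 libraries of each kind.

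This test takes the treatments together and treats 3 replicate numbers as 6 libraries. Paired by treatment and number, both shares were lower in 6 of 6 pairs, with p = 0.0312, the smallest that 6 pairs allow, and missed the threshold once adjusted over the 15 paired exact permutation tests (0.156). The fold of the loss differed between numbers. For Actb it was 4.00 in control and 4.14 in amyloid-β for replicate 2, 4.78 and 7.55 for replicate 3, and 4.87 and 5.62 for replicate 4. For Gapdh it was 5.50 and 5.43 for replicate 2, 7.59 and 10.05 for replicate 3, and 9.87 and 10.7 for replicate 4. As shares of gene counts, replicate 2 had the smallest loss of both messages in both treatments, but this order depended on the denominator. Without the 10 most abundant genes in it, control Actb took 0.579% in input and 0.0895% with hnRNP A2 for replicate 2. For replicate 3 it took 0.574% and 0.0967%, a smaller loss. The other losses were still smallest in replicate 2 there. As percentages of all records, Actb was lost least in replicate 4 and Gapdh in replicate 2, in both treatments.

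With the test across all genes (edgeR quasi-likelihood, TMM scaling, which adjusts for differences in library makeup), the loss of both genes passed in each treatment. In control cells Actb was 7.10-fold lower with hnRNP A2 than in input (log2 fold change -2.83, SE 0.27, 95% confidence interval -3.42 to -2.24, edgeR adjusted p = 2.56e-05). Gapdh was 11.9-fold lower there (log2 fold change -3.57, SE 0.29, interval -4.21 to -2.94, edgeR adjusted p = 1.69e-05). The same direction was called for 18.4% of the 15303 genes tested in control and for 20.5% in amyloid-β. The call alone therefore does not set this pair apart, while the size of the change lay at the edge of all genes: only 110 genes (0.719%) had a lower log2 fold change than Actb and 59 (0.386%) a lower one than Gapdh, where the median gene stood at 0.02.

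In amyloid-β-treated cells Actb was 8.06-fold lower than in input (-3.01 on the log2 scale, SE 0.28, edgeR adjusted p = 1.72e-05) and Gapdh 11.8-fold lower (-3.57, SE 0.29, edgeR adjusted p = 1.49e-05). Here 77 genes (0.503%) stood below Actb and 40 (0.261%) below Gapdh. With library sizes alone as the scaling, the median gene moved to 0.65 in control and 0.48 in amyloid-β, and 1042 genes in control and 1591 in amyloid-β were called lower against 2814 and 3137 with TMM. Actb was then at -2.19 and -2.52 and Gapdh at -2.91 and -3.07, all past the threshold.

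The counts of other abundant genes give these losses a scale. Genes of at least 500 CPM were taken from the input of 1 treatment and read in the comparison of the other. The libraries compared thus did not choose them, although their replicate numbers are shared. The genes were still chosen for being high in input, which favours lower values with hnRNP A2. No set was chosen on precipitated RNA, so the scale holds only for genes abundant in input. In control cells 127 of 245 such genes were called lower with hnRNP A2 and 11 higher, with a median log2 fold change of -0.95. In amyloid-β-treated cells 120 of 242 were called lower and 17 higher, with a median of -0.76. Both Actb and Gapdh are in each set. In control 13 of the abundant genes lay below Actb and 8 below Gapdh, and in amyloid-β 13 and 9, so both messages were near the low end of the abundant genes as well. This is a description without a test.

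**Figure D2:**
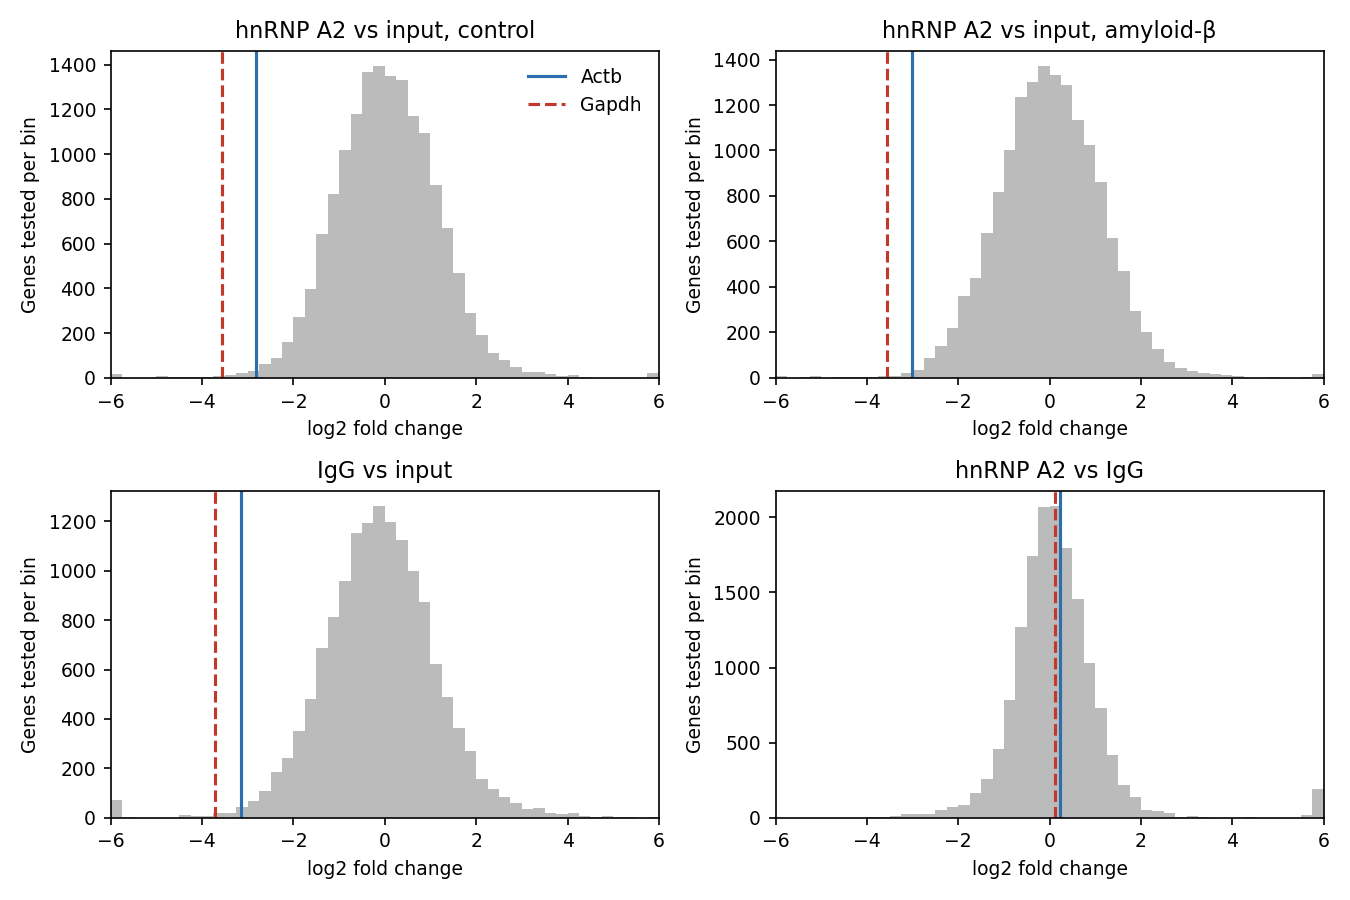
Number of genes (vertical axis) in bins of 0.25 log2 fold change (horizontal axis, edgeR with TMM) for 4 comparisons, with lines for Actb (solid) and Gapdh (dashed); values beyond the axis are placed in the outermost bins. Both lines lie in the low tail of the 3 comparisons with input and near the centre for hnRNP A2 against IgG.

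The IgG libraries had lost both messages to a like extent. Against the mean of both inputs Actb was 8.81-fold lower with IgG (-3.14 on the log2 scale, SE 0.38, edgeR adjusted p = 5.42e-05) and Gapdh 13.1-fold lower (-3.71, SE 0.41, edgeR adjusted p = 2.81e-05). Of 14205 genes tested, 4341 were called in either direction (2193 without IgG replicate 4) and 16.3% were called lower, 1.11% had a lower value than Actb and 0.760% a lower one than Gapdh. Without IgG replicate 2, the shallowest library, the values were -3.27 and -3.65 and both stayed past the threshold. As shares, IgG lay below every input library for both genes, at 0.0760% ± 0.0134 (SD, n = 3) for Actb, but the exact permutation tests gave p = 0.0238, the smallest possible for 3 against 6, and missed the threshold after adjustment (0.0595); with all records as the denominator the unadjusted p was the same and the adjusted p, 0.0446, passed. Of 14205 genes, 10.5% had IgG shares below all inputs.

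The share of uniquely aligned reads assigned to no counted feature differed between the kinds of library in parallel. Because the annotation and strand setting are not given, whether these reads lie inside or outside genes cannot be told. Such reads made up 8.46% to 11.2% of uniquely aligned records in input, 19.6% to 26.0% with hnRNP A2 and 18.5% to 22.1% with IgG. Records aligned to several places made up 46.8% to 67.2% of aligned records in input, 13.9% to 28.4% with hnRNP A2 and 25.5% to 75.7% with IgG. The part of these differences in the Actb and Gapdh values was not tested.

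Set directly against IgG, neither gene differed past the threshold in edgeR or as a share of gene counts, but both did as a percentage of all records. Actb was at 0.24 on the log2 scale (SE 0.19, interval -0.18 to 0.65, edgeR adjusted p = 0.439), and Gapdh at 0.12 (SE 0.23, interval -0.37 to 0.62, edgeR adjusted p = 0.772). A total of 13.6% of 15304 genes (2084) were called in this comparison in either direction, 5392 with the replicate number as a block and 21 without IgG replicate 4. As shares of gene counts, hnRNP A2 was 1.21-fold IgG for Actb and 1.36-fold for Gapdh (exact permutation tests, adjusted p = 0.223 and 0.300). As percentages of all records it was 2.10-fold and 2.02-fold, and both passed (exact permutation tests, p = 0.0238, the smallest that 6 against 3 allow, adjusted p = 0.0446). That denominator also carries the part of records assigned to genes, whichever gene is read. This part was 28.3% to 34.5% with hnRNP A2 and 8.58%, 31.8% and 18.5% in IgG replicates 2, 3 and 4. Its share in the 2.10-fold and 2.02-fold values was not tested. In edgeR, Actb was at 0.31 and Gapdh at 0.04 without IgG replicate 2. Without IgG replicate 4, Actb was at 0.28 (interval -0.21 to 0.78) and Gapdh at 0.38 (interval -0.23 to 0.99), and without IgG replicate 3 they were at 0.17 and 0.06. Without IgG replicate 2 and with a block for the replicate number, an alternative added after the data were seen, Actb had an interval of 0.03 to 0.60 and an edgeR adjusted p of 0.0829.

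**Figure D3:**
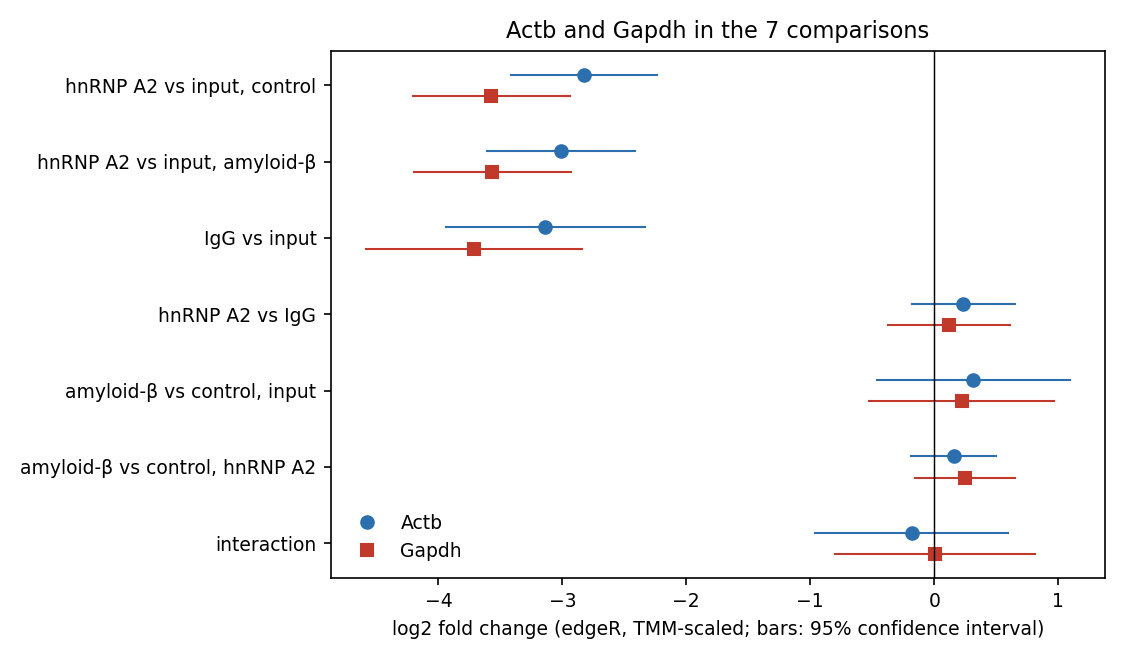
Log2 fold change (horizontal axis) of Actb (circles) and Gapdh (squares) with 95% confidence intervals from edgeR in the 7 comparisons fitted. The intervals lie wholly below 0 in the 3 comparisons with input and include 0 in the other 4.

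By counts, Gapdh fell more than Actb. The number of Actb counts per Gapdh count within a library does not depend on the scaling, and gene lengths cancel when it is compared between libraries. It does not say which message was more abundant, and it leaves out reads aligned to several places. It was 10.4, 10.0 and 8.11 in control input replicates 2, 3 and 4 and 10.3, 10.4 and 8.96 in amyloid-β input. With hnRNP A2 it was 14.3, 15.9 and 16.4 in control and 13.5, 13.8 and 17.0 in amyloid-β, above every input library.

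The ratio was 9.70 ± 0.950 (SD, n = 6) in input and 15.2 ± 1.47 (SD, n = 6) with hnRNP A2, 1.56-fold higher (exact permutation test, p = 0.00216, adjusted p = 0.0108). Paired, it was higher in 6 of 6 pairs. The paired exact permutation test gave p = 0.0312, or 0.156 when adjusted, which missed the threshold and could not have passed it. These pairs too share 3 replicate numbers and are not independent. The rise was 1.38-fold in control and 1.31-fold in amyloid-β for replicate 2, 1.59-fold and 1.33-fold for replicate 3, and 2.03-fold and 1.90-fold for replicate 4. Replicate 4 had the lowest ratio of both input groups and the highest of both hnRNP A2 groups. Its inputs also had the largest shares of records aligned to several places, 67.2% in control and 59.3% in amyloid-β, and the part of this in the ratio was not tested.

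In the IgG libraries the ratio was 37 in replicate 2 (74 against 2 counts, exact 95% interval 9.89 to 311), 13.3 in replicate 3 (interval 11.5 to 15.4) and 11.7 in replicate 4 (interval 9.72 to 14.3). All 3 lay above the highest input library, which missed the threshold (exact permutation test, p = 0.0238, adjusted p = 0.0595). Against hnRNP A2 the mean ratio depended on IgG replicate 2: hnRNP A2 over IgG was 0.734 with that library and 1.21 without it, and neither passed (exact permutation test, adjusted p = 0.700 and 0.134).

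**Figure D4:**
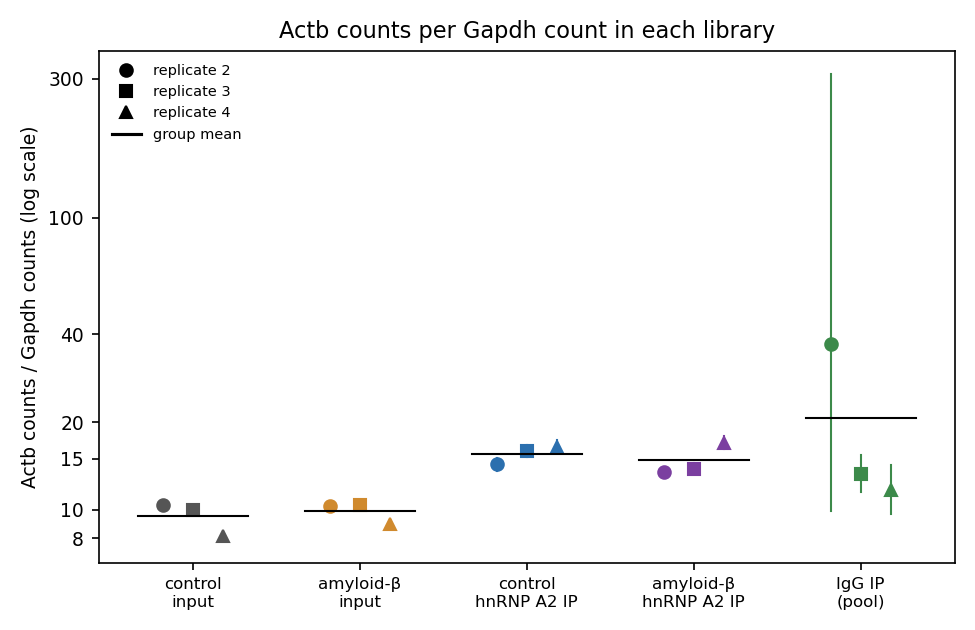
Actb counts per Gapdh count (log axis) in each of the 15 libraries, with symbols for the replicate number, thin lines for exact 95% intervals and black lines for group means. The 6 hnRNP A2 libraries (13.5 to 17.0) lie above the 6 input libraries (8.11 to 10.4), and IgG replicate 2 has an interval reaching 311.

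Near-identical gene copies bear on how such reads are counted. The RefSeq gene table for assembly GRCr8 lists 91 entries named as Gapdh pseudogenes or Gapdh-like genes, 82 of them of a pseudogene type, beside 10 Actb and 11 Actg1 pseudogenes. The count tables keep records aligned to several places in a summary row of their own. How many reads of each message lie there was not tested, so the levels of both genes, and the ratio between them, are uncertain to that extent.

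Amyloid-β was compared with control to see whether the reference messages were stable under the treatment. In input the Actb share was higher in each of the 3 same-numbered pairs, 1.28-fold, 1.72-fold and 1.21-fold for replicates 2, 3 and 4. That of Gapdh was 1.29-fold, 1.66-fold and 1.09-fold higher. With library sizes alone as the scaling, the median gene was also higher in edgeR, at 0.15 on the log2 scale. The Actb shares of the groups did not overlap, as was the case in this direction for 8.55% of 13793 genes and in the other for 0.653%. The difference did not pass (exact permutation test, p = 0.1, the smallest that 3 against 3 allow; adjusted p = 0.214), nor did that of Gapdh (exact permutation test, p = 0.3, adjusted p = 0.375).

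Across all genes edgeR put Actb at 0.32 on the log2 scale in input (SE 0.35, interval -0.46 to 1.09, edgeR adjusted p = 0.954) and Gapdh at 0.22 (SE 0.34, interval -0.53 to 0.97, edgeR adjusted p = 0.954). Leaving out amyloid-β input replicate 3 lowered both values most, to 0.06 for Actb and 0.02 for Gapdh. Among inputs that library had the highest shares of both genes and the lowest share of the 10 most abundant genes, 19.9%. Gapdh also fell to 0.08 without control input replicate 2 and to 0.13 without control input replicate 3. Its other fits with a library left out ran from 0.21 to 0.47. edgeR called 0 of 13793 genes in this comparison (0% called). Before adjustment 188 genes had an edgeR p under 0.05, 335 a DESeq2 p and 210 a limma voom p, and the other tools likewise called 0. With the replicate number as a block edgeR also called 0, and 1625 genes had an unadjusted p under 0.05. Without the block the counts lay under a share of 0.05 of the genes, the level that no difference would give. The 0 called therefore does not show that levels were stable.

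In the hnRNP A2 libraries both genes were also slightly higher in every same-numbered pair. Actb was 1.23-fold, 1.09-fold and 1.05-fold higher with amyloid-β for replicates 2, 3 and 4, and Gapdh 1.30-fold, 1.25-fold and 1.01-fold, with overlapping groups. edgeR put Actb at 0.16 on the log2 scale (SE 0.15, interval -0.19 to 0.50, edgeR adjusted p = 1.00) and Gapdh 0.25 (SE 0.17, interval -0.15 to 0.65, edgeR adjusted p = 1.00). It called 0 of 15118 genes (0% called), and 42 passed an edgeR p of 0.05 before adjustment. DESeq2 called 0 (35 before adjustment), as did limma voom (133). Leaving out a library moved Gapdh between 0.16 (without amyloid-β replicate 3) and 0.41 (without amyloid-β replicate 4, interval 0.05 to 0.76, unadjusted p = 0.0313), and none of these fits passed in edgeR after adjustment. A block for the replicate number put Gapdh at 0.24 (interval 0.07 to 0.41, unadjusted p = 0.00873, edgeR adjusted p = 0.737) and Actb at 0.16 (interval 0.003 to 0.31, edgeR adjusted p = 0.832), and neither passed. That fit called 1 of the 15118 genes, with 888 at an unadjusted p under 0.05. Without the block the counts before adjustment lay under a share of 0.05 of the genes here too.

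The loss from input did not differ between treatments past the threshold. The interaction was -0.18 for Actb (SE 0.36, interval -0.96 to 0.60) and 0.01 for Gapdh (SE 0.37, interval -0.80 to 0.82), with an edgeR adjusted p of 1.00 for both. edgeR called 0 of 15303 genes (0% called), DESeq2 0 and limma voom 0, where 125, 146 and 298 genes had an unadjusted p under 0.05. These counts lie under a share of 0.05 of the genes, the level that no difference would give. The fits have no term for the replicate. With the block edgeR called 0, and 279 genes had an unadjusted p under 0.05. The 0 called therefore does not show that the loss was equal in both treatments. The Actb value was 0.08 without amyloid-β input replicate 3, and that of Gapdh changed sign in 5 of the 12 fits with a library left out. The Actb to Gapdh ratio also showed no treatment difference that passed, at 9.51 ± 1.22 (SD, n = 3) in control and 9.89 ± 0.808 (SD, n = 3) in amyloid-β input, and 15.6 ± 1.11 (SD, n = 3) and 14.8 ± 1.93 (SD, n = 3) with hnRNP A2 (exact permutation tests, adjusted p = 0.692 and 0.700).

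Within input and within hnRNP A2 libraries the spread of both messages lay near or below that of the median gene, and across these kinds they were among the most variable genes. The medians cover genes of all count levels kept by the filter, and genes of like abundance were not compared. On log2(CPM + 1) with TMM scaling over all 15 libraries, the SD over the 6 inputs was 0.30 for Actb and 0.34 for Gapdh, against a median of 0.36 over 15344 genes. Over the 6 hnRNP A2 libraries it was 0.13 and 0.23, against a median of 0.21. Over the 12 input and hnRNP A2 libraries together it was 1.53 and 1.86, against a median of 0.46, with 99.5% and 99.8% of genes having a smaller SD.

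Genes whose levels ran most like these were sought among those with at least 10 counts in every library, by Pearson correlation of log2(CPM + 1) over the 15 libraries. The libraries fall into kinds, so the correlation mostly reflects the step from input to precipitate, and it is given as a description. For Actb, ENSRNOG00000050104 came first of 1770 genes (r = 0.992), with a mean of 578 CPM in input, 111 CPM with hnRNP A2 and 94.0 CPM with IgG. For Gapdh, ENSRNOG00000066088 came first of 1771 (r = 0.987), at 1019, 165 and 135 CPM, and it came after ENSRNOG00000050104 for Actb (r = 0.991). The gene after it for Gapdh, given without its identifier, had an r of 0.982 at 453, 220 and 220 CPM, so a similar pattern went with a much smaller step than that of Gapdh (614, 51.9 and 40.2 CPM). Gapdh itself correlated with Actb at r = 0.981. It would rank 7 on the list of Actb but was not eligible, having 2 counts in IgG replicate 2. These 2 identifiers carry no symbol in the tables used here.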

How the data were processed

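The values are deposited raw counts of reads per gene, 1 table per library. STAR 2.7.1, HTSeq, R 4.2.2 and DESeq2 are named in the submitters' processing notes without a role. The genome build, annotation and strand setting were not given in the sources used. The 5 summary rows, 65.5% to 91.4% of records per library, entered neither library sizes nor tests. Actb, Gapdh and all lists and tests were chosen with earlier results of these data known. The 4 gene lists and 6 marker lists fixed by symbol were not analysed, because 0 rows of the RefSeq table (GRCr8) give an Ensembl identifier. The named genes are this pair and, for each, the 2 genes whose levels correlate most with it, of which the one after the first for Gapdh is given by its values only.

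All 15 libraries fell into 5 groups by title, with replicate numbers 2, 3 and 4. Replicates are called biological in the design text, and every pair of libraries within a group differed by more than sampling noise. Tests across genes used edgeR 4.0.16 (R 4.3.3) with TMM, filterByExpr, its quasi-likelihood test and an adjusted p (Benjamini-Hochberg) of 0.05, with no term for the replicate. Each SE was computed as the absolute log2 fold change divided by the root of F. hnRNP A2 and input, hnRNP A2 and IgG, and IgG and input were each fitted together, and the treatment comparisons used their own 6 libraries. Shares and the ratio were compared by 2-sided exact permutation tests (scipy 1.17.1), 15 in all. Also tried were limma 3.58.1 (voom), DESeq2 1.42.0, other scalings, filters and denominators, 1 fit of all libraries, the replicate block and each library left out. Scripts were tested on simulated data.

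Deviations from the group mean correlated, between libraries of the same number, at 0.65 to 0.88 between treatments with hnRNP A2, 0.49 to 0.67 in input, 0.16 to 0.38 between hnRNP A2 and IgG and 0.32 to 0.60 between control hnRNP A2 and input, which was read as pairing. Correlations fell to 0.08 between amyloid-β hnRNP A2 and input and to -0.12 between IgG and amyloid-β input. Amyloid-β input replicate 3 stood at 0.08 with hnRNP A2 replicate 3 and 0.26 with replicate 4. Input replicate 4 stood at 0.29 with hnRNP A2 replicate 4 and 0.37 with replicate 3. Only input replicate 2 was highest with its own number there (0.52), so the pairing of amyloid-β input with hnRNP A2 is less sure.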

Additional observations from a re-analysis of the deposited data

How the results depend on the processing

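In the tests across all genes (edgeR, DESeq2 and voom), the loss of Actb and Gapdh from input kept its direction and its call. This held with hnRNP A2 in each treatment and with IgG, under every alternative run and without any single library. Paired by replicate number (replicate block), the exact tests of hnRNP A2 against input no longer passed, with unchanged folds of 0.193 for the Actb share, 0.125 for the Gapdh share and 1.56 for their ratio, since 6 pairs cannot go below p = 0.0312. In edgeR the block changed no call of either gene. With all records of a file as the denominator, the shares passed at an adjusted p of 0.0446 for hnRNP A2 against IgG (2.10-fold for Actb and 2.02-fold for Gapdh) and for IgG against input (0.148 and 0.100). That denominator also carries the part of records assigned to genes, which varied between libraries. The unadjusted p of IgG against input was 0.0238 with either denominator. With all records hnRNP A2 against input moved to 0.311 for Actb and 0.203 for Gapdh. Values that did not pass changed sign as follows, and the cause was not tested: Gapdh was at -0.077 against IgG with voom, and its interaction at -0.088 with voom and -0.16 with library sizes alone. With a library left out, the interaction ranged from -0.34 to 0.082 for Actb (without amyloid-β input replicate 3) and -0.26 to 0.21 for Gapdh, the fold of the ratio from 0.603 to 1.21 for hnRNP A2 against IgG and from 0.969 to 1.09 for amyloid-β in input. The number of genes called between hnRNP A2 and IgG, 2084, became 5392 with the block and 5445 when IgG replicate 2 was left out as well, and ranged from 21 (without IgG replicate 4) to 2428 with a library left out. For IgG against input it was 4341 and ranged from 2193 (without IgG replicate 4) to 4806. With the block, 1 gene was called for amyloid-β with hnRNP A2, neither Actb nor Gapdh. With library sizes alone 5598 genes were higher and 1042 lower for hnRNP A2 against input in control (2908 and 2814 with TMM), 4766 and 1591 in amyloid-β (2845 and 3137), 1551 and 648 for hnRNP A2 against IgG (1192 and 892) and 3385 and 1213 for IgG against input (2025 and 2316), and the median gene moved to 0.18 and 0.33 in the last 2. With voom the split against IgG was 957 higher and 1152 lower. Depth limits IgG replicate 2 most: 3 counts there correspond to 0.00368% of gene counts, above its Gapdh share.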
